A study of Mus musculus with 8 samples.

Results

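Of the 22911 named genes with a probe on the array, 10 encode the channels and transporters described here, which move salt and water across the airway epithelium. They were chosen by name, as Cftr, Ano1, Scnn1a, Scnn1b, Scnn1g, Slc26a4, Slc26a9, Slc12a2, Kcnj16 and Aqp4, and their probes were found by RefSeq accession. They had 13 of the 56605 probes. Cftr, Scnn1a and Aqp4 had 2 probes each and the other genes 1, and the brighter probe stands for a gene with 2. Lung RNA came from 8 female BALB/c mice, bought at 4 weeks of age, housed for 2 weeks and then fed freely for 70 days, with 2 mice in each of 4 groups and 1 single-color array per mouse. NT mice ate standard feed and received no ovalbumin (OVA). Ctrl-F mice ate standard feed, Cap-F mice feed with carbonate apatite particles that carried no oligodeoxynucleotide, and ODNcap-F mice feed with the same particles loaded with CpG-oligodeoxynucleotide. These 3 groups were injected intraperitoneally with OVA in aluminum oxide gel on Days 42, 49 and 56, inhaled OVA aerosol from Days 63 to 69, and are called OVA-challenged below. All lungs were taken on Day 70. NT mice received neither the injections nor the inhalations, so a difference from NT cannot be divided between them.

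The liquid that lines the airway is kept at its depth by secretion of anions and absorption of sodium. Chloride and bicarbonate leave epithelial cells through the cyclic AMP-gated channel encoded by Cftr, the calcium-gated channel encoded by Ano1 and the transporter encoded by Slc26a9. Chloride enters at the basal side through the cotransporter encoded by Slc12a2. Slc26a4 encodes an exchanger of chloride for bicarbonate and other anions. Sodium is taken up through the epithelial sodium channel ENaC, built from the alpha, beta and gamma subunits encoded by Scnn1a, Scnn1b and Scnn1g. Kcnj16 encodes a subunit of basolateral potassium channels, and Aqp4 a water channel of the basolateral membrane of airway cells. Type 2 cytokines, which drive allergic airway disease, are known to raise pendrin, the product of Slc26a4, in airway epithelium.

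The promoters of Slc26a4 and Slc26a9 are shown because these genes of 1 transporter family moved in opposite directions in the OVA-challenged mice, and that of Scnn1b because the 3 subunits of ENaC moved in 1 direction. The sequences are the 250 bases before the transcription start in RefSeq (build GRCm38.p6, from another strain than these mice), and capitals mark TATAAA on either strand.
Slc26a4, chr12:31559985-31560234, minus strand: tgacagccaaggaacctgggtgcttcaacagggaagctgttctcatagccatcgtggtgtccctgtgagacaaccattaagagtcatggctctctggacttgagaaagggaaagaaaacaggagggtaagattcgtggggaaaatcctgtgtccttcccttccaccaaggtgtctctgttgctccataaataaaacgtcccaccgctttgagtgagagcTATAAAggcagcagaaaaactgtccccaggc
Slc26a9, chr1:131743772-131744021, plus strand: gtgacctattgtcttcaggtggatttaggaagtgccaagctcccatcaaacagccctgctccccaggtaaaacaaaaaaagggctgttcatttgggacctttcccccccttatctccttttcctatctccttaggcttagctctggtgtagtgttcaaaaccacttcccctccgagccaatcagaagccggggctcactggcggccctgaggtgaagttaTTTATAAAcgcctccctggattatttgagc
Scnn1b, chr7:121864788-121865037, plus strand: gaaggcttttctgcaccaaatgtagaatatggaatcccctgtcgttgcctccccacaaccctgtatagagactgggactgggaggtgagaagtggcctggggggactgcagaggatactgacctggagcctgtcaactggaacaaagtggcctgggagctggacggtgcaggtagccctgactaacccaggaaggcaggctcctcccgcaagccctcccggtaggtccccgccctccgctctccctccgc
The start used for Slc26a4 is that of this window, and another RefSeq transcript of the gene starts further upstream.

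The window of Slc26a4 held TATAAA at 31 to 26 bases before the start, and that of Slc26a9 held overlapping matches on both strands between 30 and 23 bases before it. A window of Kcnj16 held it too, further from the start, and no match lay in the windows of Scnn1b, Scnn1g, Cftr or Ano1. This motif was chosen after the sequences were seen, and 12.4% of 32851 windows of this length held it. Windows were searched on both strands for 2 Stat dimer motifs as well, TTC and GAA with 4 or with 3 bases between them, which 5.85% and 7.02% of all windows held. Of the 10 windows of 7 of the genes, 1 held a match, TTCAGAGAA in a window of Kcnj16. The windows of Slc26a4 and Slc26a9 had 49.6% and 50% G and C, below the median of 52.4% over all windows, and those of Scnn1b and Scnn1g had 60.8% and 65.2%. Scnn1g and Scnn1b are neighbours on chromosome 7, with 131 kilobases between the starts of their windows. Scnn1a, Slc12a2 and Aqp4 had no window in the table used.

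On single arrays, 61.3% to 65.0% of the probes were well above background, the lowest log2 signal well above background was 3.61 to 4.18, and no spot was saturated. The markers Sftpc and Scgb1a1, of alveolar type 2 and club cells, were at 17.60 and 17.64 in NT, as in lung. The slide held the arrays of NT and Ctrl-F in its row 1 and those of the particle feeds in its row 2, and row and group cannot be told apart across rows. Of the 10 genes, 9 passed the filter on dim probes, and their brighter probes were well above background on all 8 arrays. Kcnj16 did not pass. Its signal lay between 1.82 and 1.89 in all 8 mice, not well above background on any array, and no fold is given for it.

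**Figure D1:**
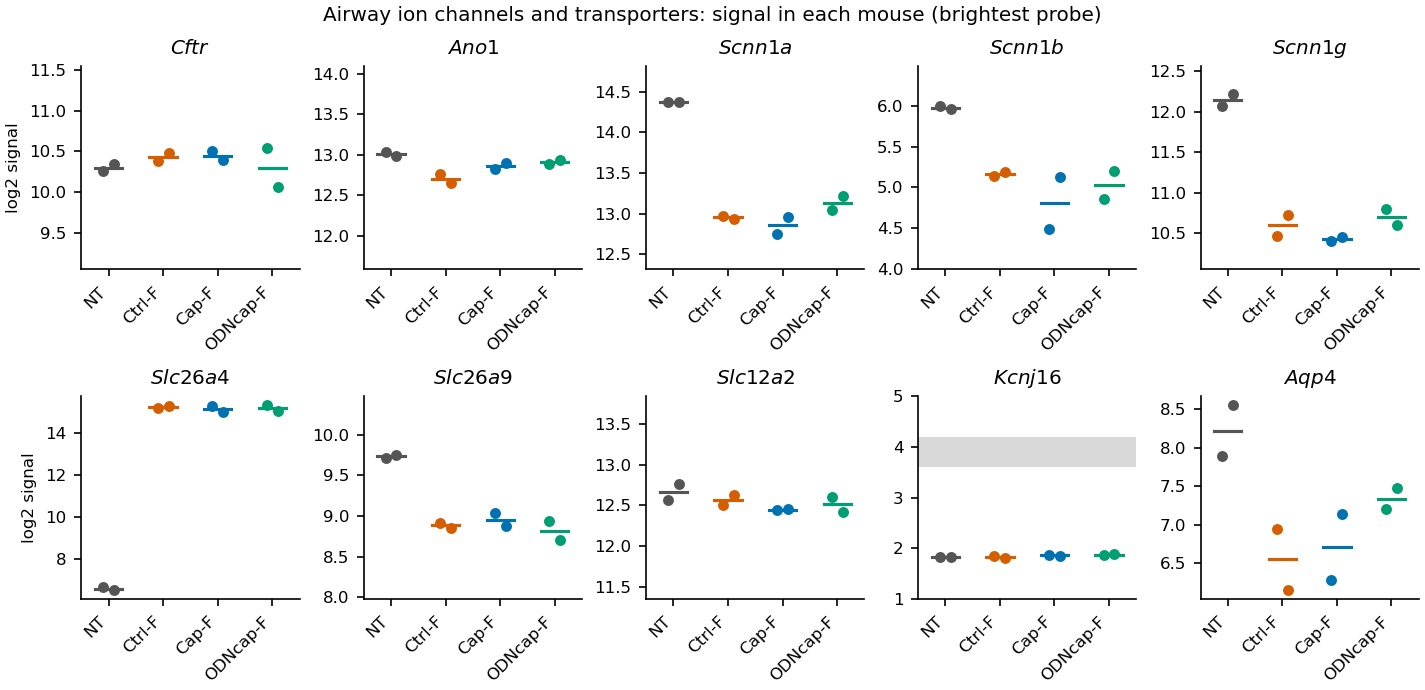
Log2 signal of the 10 genes (brightest probe, quantile normalized) in each of 8 mice, with dots for mice, bars for the mean of 2 and a separate scale for each gene. Slc26a4 stood near 15 in every OVA-challenged mouse and near 6.6 in NT, Scnn1a, Scnn1b, Scnn1g, Slc26a9 and Aqp4 were lower than NT in every OVA-challenged mouse, and Kcnj16 lay below the gray band, which spans the lowest signals well above background (3.61 to 4.18).

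Between Ctrl-F and NT, which asks what OVA did in mice on standard feed, Slc26a4 rose and the 3 ENaC subunits, Slc26a9, Aqp4 and, by a small step, Ano1 fell, while Cftr and Slc12a2 did not pass the test. Whole lung was measured, so fewer cells of a type and less RNA per cell cannot be told apart. In all, 7 of 9 genes were called at a limma Benjamini-Hochberg adjusted p under 0.05 over all probes, 1 higher and 6 lower, and without Ctrl-F mouse 2 the count was 4. Of all 37116 probes tested 61% were called in this comparison, 26.5% higher and 34.5% lower, so a share of 77.8% in so short a list is near the background. Groups did not overlap in 8 of 9 genes, against 83.5% of all probes. With a fold over 2 required as well, 4 genes were left (44.4%), against 22.1% of all probes. The median log2 fold change of the 9 genes was -0.81, and that of all probes -0.10.

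In Cap-F 6 of 9 genes were called against NT, 1 higher and 5 lower, where 56% of all probes were called, 24% higher and 31.9% lower, and 5 of these passed a fold of 2, against 19.1%. All 9 genes had groups that did not overlap, as did 81.9% of all probes. In ODNcap-F 5 of 9 genes were called against NT, 1 higher and 4 lower, where 59% of all probes were called, 25.2% higher and 33.8% lower, and 3 passed a fold of 2, against 20%. Groups did not overlap in 7 of 9, against 81.7% of probes. The medians of the 9 genes were -0.78 in Cap-F and -0.88 in ODNcap-F, and those of all probes -0.10 and -0.11. The 3 comparisons share the NT mice, so their values for a gene are given side by side and are not independent of each other.

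**Figure D2:**
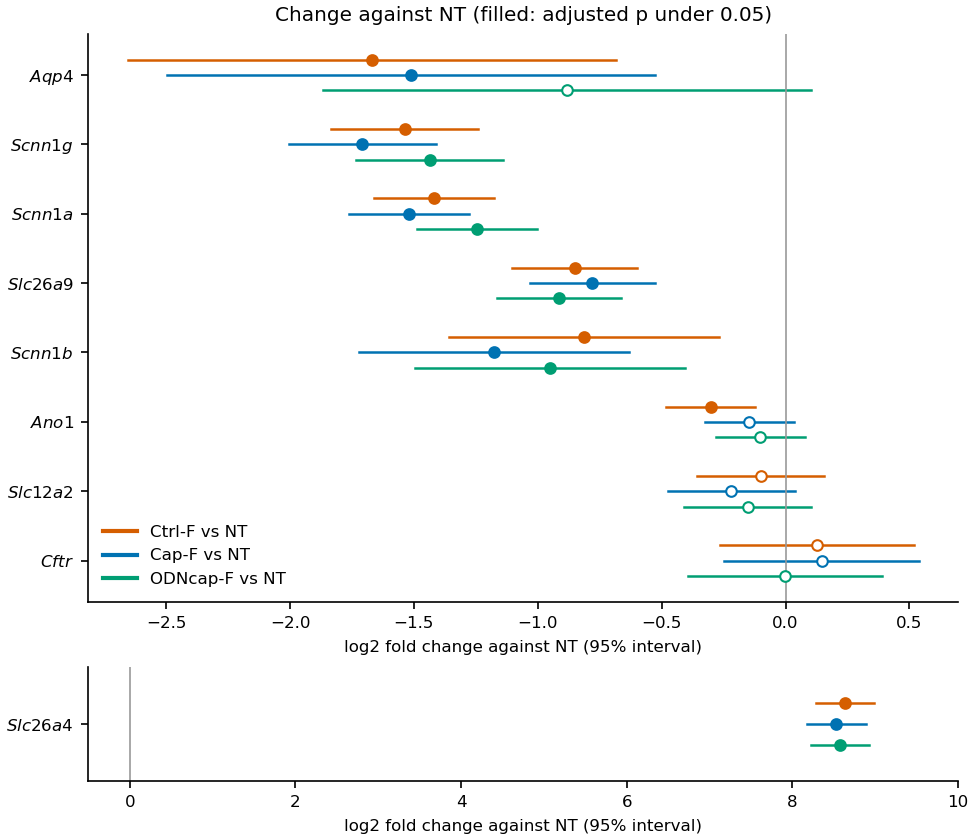
Log2 fold change against NT with its 95% interval for the 9 genes that passed the filter, by OVA-challenged group (limma, 2 mice per group), with Slc26a4 on a scale of its own. Filled points have an adjusted p under 0.05; Slc26a4 lay 8.53 to 8.64 above NT, the ENaC subunits, Slc26a9 and Aqp4 below it, and the intervals of Cftr and Slc12a2 spanned 0.

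Among the transporters of anions, Slc26a4 (NM_011867) encodes pendrin, which exchanges chloride for bicarbonate, iodide or thiocyanate. Its log2 signal was 6.66 and 6.54 in the NT mice, 15.18 and 15.29 in Ctrl-F, 15.28 and 14.98 in Cap-F, and 15.32 and 15.03 in ODNcap-F. Every OVA-challenged mouse stood far above both NT mice, and the 3 OVA-challenged groups overlapped each other. The signal was 398-fold higher in Ctrl-F than in NT (log2 8.64 ± 0.14 SE, adjusted p = 4.26e-06), 370-fold in Cap-F (8.53, adjusted p = 5.50e-06) and 381-fold in ODNcap-F (8.57, adjusted p = 5.50e-06) by limma. These rises ranked 17, 13 and 17 among the 37116 probes. Slc26a4 was well above background in NT as well, so the folds are measured on both sides. Normexp background correction gave smaller log2 rises of 7.83, 7.77 and 7.82.

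Slc26a9 (NM_177243), of the same family, encodes an anion transporter with chloride channel activity. It was at 9.72 and 9.75 in the NT mice, 8.92 and 8.85 in Ctrl-F, 9.03 and 8.88 in Cap-F, and 8.94 and 8.70 in ODNcap-F. All 6 OVA-challenged mice were lower than the NT mice, and the OVA-challenged groups overlapped. The fall was 0.85 ± 0.10 (SE) on the log2 scale in Ctrl-F, 1.80-fold (limma adjusted p = 0.000847), with log2 differences of -0.78 in Cap-F (adjusted p = 0.00138) and -0.92 in ODNcap-F (adjusted p = 0.000701).

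Ano1 (NM_178642) encodes the calcium-activated chloride channel TMEM16A. Its log2 signal was 13.03 and 12.99 in the NT mice, 12.76 and 12.65 in Ctrl-F, 12.83 and 12.90 in Cap-F, and 12.88 and 12.93 in ODNcap-F. All OVA-challenged mice were below both NT mice, by little. The fall in Ctrl-F was 1.23-fold (log2 -0.30 ± 0.07 SE, limma adjusted p = 0.0131), and the differences in Cap-F (-0.15, adjusted p = 0.136) and ODNcap-F (-0.10, adjusted p = 0.270) did not pass the test. The Ctrl-F call was lost with scaling to the 75th percentile (-0.17, adjusted p = 0.0864), in the local-pooled-error test (adjusted p = 0.0572), without NT mouse 1 (adjusted p = 0.0647) and without Ctrl-F mouse 2 (adjusted p = 0.0680). In ODNcap-F the 75th percentile turned the sign (0.0077).

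Cftr (NM_021050) encodes the anion channel mutated in cystic fibrosis. It was at 10.25 and 10.35 in the NT mice, 10.38 and 10.48 in Ctrl-F, 10.50 and 10.39 in Cap-F, and 10.54 and 10.06 in ODNcap-F. The ODNcap-F mice spanned the values of all other mice, while the mice of Ctrl-F and Cap-F lay just above NT. No difference from NT passed the test: 0.13 in Ctrl-F (95% interval -0.27 to 0.52), 0.15 in Cap-F (-0.25 to 0.54) and -0.0034 in ODNcap-F (-0.40 to 0.39), with limma adjusted p of 0.521, 0.469 and 0.987. Its second probe, near the background at 3.48 to 4.72, gave -0.01, 0.40 and -0.05, with adjusted p from 0.382 to 0.980.

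Slc12a2 (NM_009194) encodes the sodium, potassium and chloride cotransporter NKCC1, which loads the cell with chloride. Its values were 12.56 and 12.77 in the NT mice, 12.50 and 12.62 in Ctrl-F, 12.44 and 12.45 in Cap-F, and 12.60 and 12.42 in ODNcap-F. Both Cap-F mice were below the mice of NT and of Ctrl-F, and the other groups overlapped. The differences from NT were -0.10 (95% interval -0.36 to 0.16), -0.22 (-0.48 to 0.04) and -0.15 (-0.41 to 0.10), with limma adjusted p of 0.435, 0.122 and 0.251, and that of Ctrl-F was 0.026 with scaling to the 75th percentile.

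The ENaC subunits fell together. Scnn1a (NM_011324), the alpha subunit, was at 14.38 in both NT mice, 12.98 and 12.94 in Ctrl-F, 12.75 and 12.96 in Cap-F, and 13.04 and 13.22 in ODNcap-F. No OVA-challenged mouse came within 1 log2 unit of NT, and Ctrl-F and Cap-F overlapped while both ODNcap-F mice were above them. The signal was 2.68-fold lower in Ctrl-F (log2 -1.42 ± 0.10 SE), 2.87-fold in Cap-F (-1.52) and 2.37-fold in ODNcap-F (-1.24), with limma adjusted p of 0.000121, 0.000116 and 0.000214. The dimmer of its probes gave the same direction with smaller changes, from 9.51 and 9.49 in NT to 9.17 and 9.04 in Ctrl-F, with log2 differences of -0.39, -0.56 and -0.33 (adjusted p = 0.0129, 0.00345 and 0.0258). With the mean of both probes the differences were -0.91, -1.04 and -0.79, each called. The 2 probes thus differed in the size of the change, and which of them is nearer to the transcript level was not tested.

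Scnn1g (NM_011326), the gamma subunit, was at 12.06 and 12.21 in the NT mice, 10.47 and 10.73 in Ctrl-F, 10.40 and 10.46 in Cap-F, and 10.80 and 10.60 in ODNcap-F. The 6 OVA-challenged mice lay between 10.40 and 10.80, all below NT. Its fall was 2.90-fold in Ctrl-F (log2 -1.54 ± 0.12 SE), 3.27-fold in Cap-F (-1.71) and 2.71-fold in ODNcap-F (-1.44), with limma adjusted p of 0.000183, 0.000153 and 0.000264.

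Scnn1b (NM_001272023), the beta subunit, had a dim probe, at 6.0 and 5.97 in the NT mice, 5.14 and 5.19 in Ctrl-F, 4.48 and 5.13 in Cap-F, and 4.85 and 5.21 in ODNcap-F. All OVA-challenged mice were below NT, and Cap-F mouse 1 was lowest. The log2 differences were -0.81 in Ctrl-F (SE 0.22, limma adjusted p = 0.0205), -1.18 in Cap-F (adjusted p = 0.00565) and -0.95 in ODNcap-F (adjusted p = 0.0121), or 1.76-fold, 2.26-fold and 1.93-fold lower. Without NT mouse 1, NT mouse 2, Ctrl-F mouse 1 or Ctrl-F mouse 2 the Ctrl-F call was lost, at log2 differences of -0.80, -0.83, -0.79 and -0.84 and adjusted p of 0.0830, 0.0753, 0.0819 and 0.0687. The ODNcap-F call was lost without NT mouse 1 (-0.94, adjusted p = 0.0572), NT mouse 2 (-0.97, adjusted p = 0.0523) or ODNcap-F mouse 1 (-0.77, adjusted p = 0.0636). Normexp background correction gave smaller falls for this dim probe, at -0.30, -0.34 and -0.38, each called (adjusted p = 0.0110, 0.00682 and 0.00340). Without Cap-F mouse 2 the Cap-F difference was -1.50 and without Cap-F mouse 1 -0.85, called both times.

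Aqp4 (NM_009700) had the lowest Ctrl-F fold change of the 9 genes and varied most between mice of NT, Ctrl-F and Cap-F, with an SD of 0.47 in NT, 0.56 in Ctrl-F and 0.61 in Cap-F, against medians over the 9 genes of 0.07, 0.08 and 0.11. It was at 7.89 and 8.55 in the NT mice, 6.95 and 6.15 in Ctrl-F, 6.28 and 7.13 in Cap-F, and 7.20 and 7.47 in ODNcap-F. Every OVA-challenged mouse was below both NT mice, and both ODNcap-F mice were above the mice of the other OVA-challenged groups. The signal was 3.18-fold lower in Ctrl-F (log2 -1.67 ± 0.40 SE, limma adjusted p = 0.0130) and 2.85-fold lower in Cap-F (-1.51, adjusted p = 0.0206), and the difference of -0.88 in ODNcap-F did not pass the test (95% interval -1.87 to 0.10, adjusted p = 0.106).

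The Aqp4 calls depended on single mice and on settings. Without NT mouse 2 the Ctrl-F difference was -1.34 (adjusted p = 0.0743) and the Cap-F difference -1.18 (0.109), without Ctrl-F mouse 2 the Ctrl-F difference was -1.27 (0.0654), and without Cap-F mouse 1 the Cap-F difference was -1.08 (0.0961). The Cap-F call was lost without the filter on dim probes, too (adjusted p = 0.0506). The ODNcap-F difference was called with normexp background correction (-0.74, adjusted p = 0.0203), in a fit of NT and ODNcap-F alone (adjusted p = 0.0493), with the mean of both probes (-1.04, adjusted p = 0.0396) and in the local-pooled-error test (adjusted p = 2.04e-05). It was -0.55 without NT mouse 2 (adjusted p = 0.392) and -0.75 without ODNcap-F mouse 1 (adjusted p = 0.293), and leaving out 1 mouse gave no call in any of 8 cases. The dimmer probe, at 5.27 and 5.80 in NT, was lower in all 3 groups. On the log2 scale it fell by 1.56 in Ctrl-F and 1.19 in ODNcap-F (limma adjusted p = 0.00472 and 0.0140). Of the 2 Ctrl-F arrays, 1 was well above background for this probe. In Cap-F it was not well above background on either array, and at least 2.79-fold lower than in NT.

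Between the OVA-challenged groups, which asks whether the particle feeds changed these genes, none of the 9 genes passed the limma test. For ODNcap-F against Ctrl-F 0 of 9 genes and 0% of all probes were called. Log2 differences ran from -0.14 (Scnn1b) to 0.79 (Aqp4), and the smallest adjusted p was 0.740. The Aqp4 difference rested on single mice, at 0.39 without Ctrl-F mouse 2 and 1.19 without Ctrl-F mouse 1. No alternative setting called it, though the closest came near the threshold. Groups did not overlap in 3 genes, Ano1, Scnn1a and Aqp4, each higher in ODNcap-F, against 35.4% of all probes. At an unadjusted p under 0.05 the count was 1 gene, Ano1, higher in ODNcap-F by 0.20 on the log2 scale (95% interval 0.02 to 0.38), where 6.73% of probes passed, and the local-pooled-error test called 0. The interval for Aqp4 ran from -0.20 to 1.77, and that for Slc26a4 (-0.06) ran from -0.41 to 0.29.

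For ODNcap-F against Cap-F 0 of 9 genes were called, against 0.00269% of all probes, with log2 differences from -0.15 (Cftr) to 0.63 (Aqp4). Leaving out Cap-F mouse 1 gave 0.20 for Aqp4, and leaving out mouse 2 of that group gave 1.06. Scnn1a, Scnn1g and Aqp4 did not overlap and were higher in ODNcap-F, against 44.7% of probes without overlap. Scnn1a alone passed an unadjusted p of 0.05, at 0.28 (95% interval 0.03 to 0.52, limma adjusted p = 0.350), as did 13% of probes, and its dimmer probe was at 0.24 (adjusted p = 0.377). The local-pooled-error test called 0 genes.

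For Cap-F against Ctrl-F 0 of 9 genes were called, against 0.00269% of all probes, and the smallest limma adjusted p was 0.355. Differences ran from -0.36 (Scnn1b) to 0.16 (Ano1 and Aqp4). Leaving out Cap-F mouse 1 gave -0.038 for Scnn1b and leaving out mouse 2 of that group -0.68, and the difference of Aqp4 ran from -0.27 to 0.59 with 1 mouse left out. Groups did not overlap in 4 genes, Ano1 higher and Scnn1b, Scnn1g and Slc12a2 lower in Cap-F, against 51.2% of probes. At an unadjusted p under 0.05 the count was 0 genes, against 16.2% of probes, and the local-pooled-error test called 0. These intervals do not show that the feeds left the genes alike, and for the 8 genes other than Aqp4 no interval of the 3 comparisons reached 1 log2 unit on the brightest probe.

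**Figure D3:**
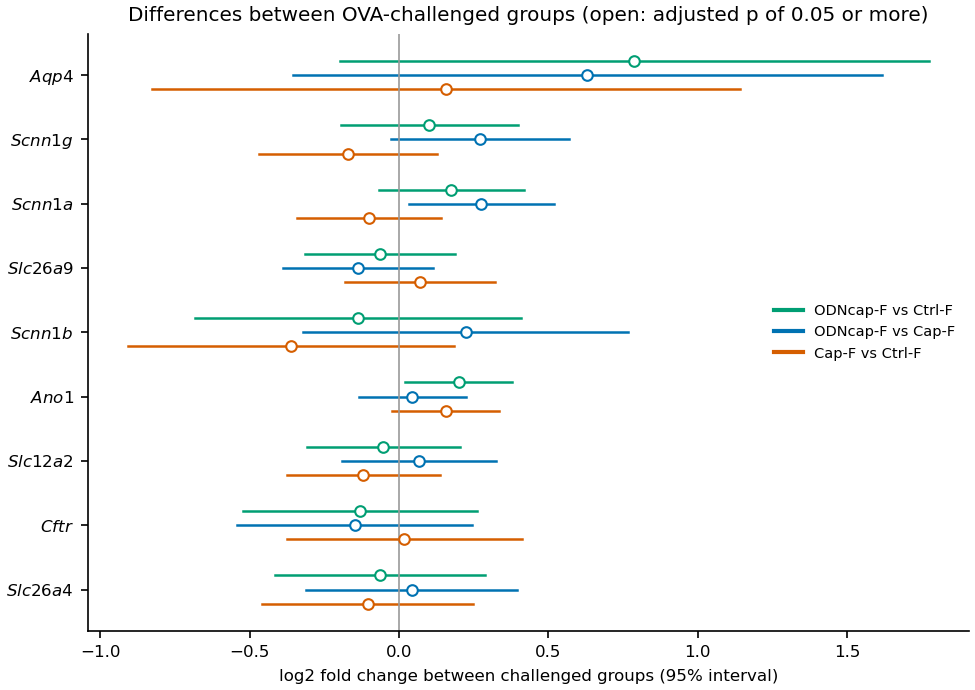
Log2 fold change with 95% interval for the 9 genes in the 3 comparisons of OVA-challenged groups (limma, 2 mice per group); open points have an adjusted p of 0.05 or more. All points are open, and the widest intervals are those of Aqp4, which for ODNcap-F against Ctrl-F was at 0.79 with an interval of -0.20 to 1.77.

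The order of the group means was NT, ODNcap-F, Ctrl-F and Cap-F from high to low for Scnn1a and Scnn1g, and NT, Ctrl-F, ODNcap-F and Cap-F for Scnn1b. For Aqp4 it was NT, ODNcap-F, Cap-F and Ctrl-F, and for Ano1 the same. The step from NT to its neighbour passed the limma test for Scnn1a, Scnn1b and Scnn1g, and for Slc26a9, whose order was NT, Cap-F, Ctrl-F and ODNcap-F. For Aqp4 and Ano1 that step did not pass, though the mice of NT and ODNcap-F did not overlap. In Slc26a4 NT was lowest, under Cap-F, ODNcap-F and Ctrl-F, and of its steps only that from NT to Cap-F passed the test. No pair of neighbouring OVA-challenged groups passed it in any gene.

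The other genes of the same processes were described from 5 lists of channel partners, regulators and transporters. Against NT 61% of all probes were called in Ctrl-F, 56% of them in Cap-F and 59% of them in ODNcap-F, and the counts of each list stand against those shares. In Ctrl-F the lists had 78.6% (other anion channels and CFTR partners), 66.7% (ENaC regulators), 52.9% (potassium channels and pump), 81.8% (bicarbonate, acid and oxidant transport) and 100% (other aquaporins) of their 6 to 18 measured genes called, and no list was tested as a whole. Among the other anion channels and the partners of CFTR, 14 of 18 genes passed the filter, and in Ctrl-F against NT 6 rose, 5 fell and 3 did not pass the limma test, with a median of 0.13. In Cap-F and ODNcap-F 7 rose and 4 fell in each. Clca1, a secreted protein of mucous cells that raises ANO1 at the cell surface, went from 2.65 and 5.38 in NT to 16.91 and 16.68 in Ctrl-F, 16.70 and 17.19 in Cap-F, and 17.06 and 17.23 in ODNcap-F. That rise was 12.79 ± 0.81 (SE) on the log2 scale in Ctrl-F (adjusted p = 9.08e-05), with 1 of the 2 NT mice well above background. P2ry2, a receptor for extracellular nucleotides that stimulates calcium-activated chloride secretion, rose by 1.99, Clca3a2 by 0.99 and Adora2b, an adenosine receptor upstream of CFTR, by 0.63. Slc9a3r2, a scaffold protein that binds CFTR, fell by 1.58, Clca3a1 by 0.49, Ano6, a lipid scramblase and channel, by 0.40 and Ano10 by 0.38. Clca2, Clca4a, Best1 and Slc26a3 did not pass the filter.

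Of the proteases and regulators of ENaC, 18 of 19 genes passed the filter, and 3 rose and 9 fell in Ctrl-F, 2 rose and 11 fell in Cap-F, and 3 rose and 8 fell in ODNcap-F, with medians of -0.38, -0.41 and -0.33. Among those that fell in Ctrl-F were genes known to raise and genes known to lower ENaC activity. Prss8 (prostasin), a protease that activates the channel, fell by 1.2 ± 0.14 (SE), Nr3c2, the mineralocorticoid receptor, by 1.12, and Tsc22d3 (GILZ), a steroid-induced protein that raises the channel at the membrane, by 1.25. Nedd4l, a ubiquitin ligase that removes ENaC from the membrane, fell by 1.21 ± 0.08 (SE, adjusted p = 8.66e-05), and by 1.25 and 1.17 in Cap-F and ODNcap-F. The genes that rose in Ctrl-F were Tmprss4, another protease that activates the channel (0.83), the kinase gene Oxsr1 (0.74) and the protease gene St14 (0.30). Hsd11b2 did not pass the filter.

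All 17 genes of the list of other potassium channels, the sodium pump and potassium chloride cotransporters passed the filter. In Ctrl-F 2 rose, 7 fell and 8 did not pass the test, with a median of -0.18, and 4 rose and 7 fell in Cap-F and 3 and 5 in ODNcap-F. Kcnn4, a calcium-activated potassium channel of epithelia and leukocytes, rose by 2.82 ± 0.18 (SE), and Kcnj15 by 1.13. Kcne2, a potassium channel subunit, fell by 1.71, the pump regulator Fxyd1 by 1.53 and the cotransporter Slc12a4 by 0.47. Kcnma1, the large-conductance channel, was not well above background in Ctrl-F and was at least 1.29-fold lower than in NT. It passed the filter only through NT. Its call used Ctrl-F signals of 1.63 and 3.66, under the lowest signal well above background, and does not test this bound. Kcnj10, a partner of Kcnj16 and named for that reason outside the rule, was 0.49 above NT in Ctrl-F, which did not pass the test (adjusted p = 0.0973), rose by 1.0 in Cap-F (adjusted p = 0.00990) and was 0.23 above NT in ODNcap-F (adjusted p = 0.394).

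Genes for bicarbonate, acid and oxidant transport had 11 of 17 members past the filter, of which 6 rose and 3 fell in Ctrl-F and 7 rose and 3 fell in each of Cap-F and ODNcap-F, with medians of 0.45, 0.56 and 0.74. Duox1, an oxidase that makes hydrogen peroxide at the airway surface, and Duoxa1, its maturation factor, were not well above background in NT. Duoxa1 was at 1.70 and 1.71 in NT and at 11.07 and 11.31 in Ctrl-F, at least 189-fold higher, and at least 176-fold in Cap-F and 132-fold in ODNcap-F. Duox1 was at least 37.5-fold higher in Ctrl-F, 33.0-fold in Cap-F and 26.8-fold in ODNcap-F. Both genes passed the filter only through OVA-challenged groups. Their calls used NT signals under the lowest signal well above background and do not test these bounds. Hvcn1, a proton channel of leukocytes and airway cells, rose by 2.12 and Car2, a carbonic anhydrase, by 0.98. The bicarbonate cotransporter Slc4a4 fell by 1.21 and Car4 by 0.95, and Slc9a2, a sodium-proton exchanger, was at least 1.5-fold lower. Slc9a2 passed the filter only through NT. Its call used Ctrl-F signals of 2.91 and 2.06, under the lowest signal well above background, and does not test this bound. Duox2 had no named probe, and Slc9a3, Car12, Atp12a, Duoxa2 and Slc5a8 did not pass the filter.

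Of the other aquaporins 6 of 7 passed the filter, all 6 called in each group against NT, 3 higher and 3 lower. Aqp5, the water channel of alveolar type 1 cells and gland cells, fell by 1.54 ± 0.09 (SE), Aqp1, of endothelium, by 1.43 and Aqp2 by 1.09 in Ctrl-F. Aqp9, of leukocytes among others, rose by 3.18, Aqp3, of basal cells and macrophages, by 2.43 and Aqp11 by 0.79. Across the 5 lists no gene was called between OVA-challenged groups, where the smallest limma adjusted p were 0.182 or higher. The medians of these lists were the same with Kcnma1, Slc9a2, Duox1 and Duoxa1 at their bounds. A median does not move while a gene stays on its side of it, so this is no check of the dim genes.

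**Figure D4:**
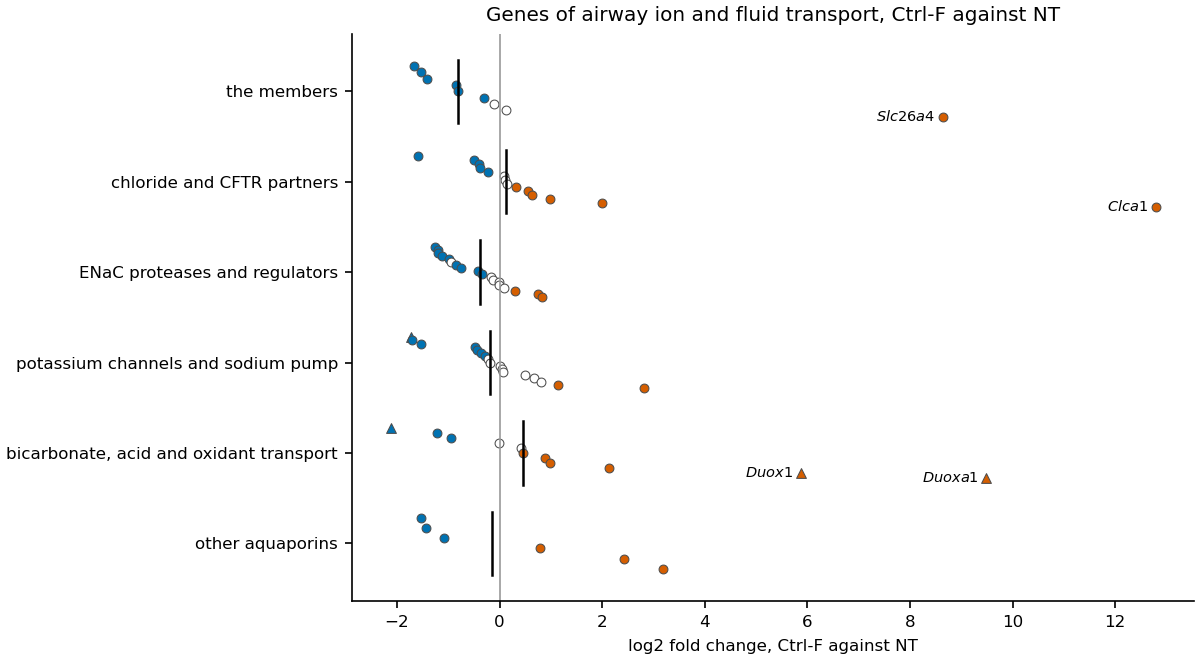
Log2 fold change in Ctrl-F against NT of the 9 genes and of 5 lists of related genes (brightest probe); orange, higher and blue, lower at an adjusted p under 0.05, white not called, and black bars for list medians. Triangles mark genes not well above background in 1 group, for which the text gives a bound; Slc26a4, Clca1, Duoxa1 and Duox1 stood apart from the rest, whose fitted changes lay between -2.12 and 3.18.

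Markers of several cell types moved with the genes above, and their part in the results was not tested. A marker is counted as risen or fallen only where it was called. The counts stand against the same shares of all probes called against NT (61%, 56% and 59%). Of 6 general epithelial genes 4 fell in Ctrl-F, 3 in Cap-F and 2 of them in ODNcap-F, with medians of -0.36, -0.33 and -0.13, and their summed log2 level was 15.67 to 15.70 in NT and 15.26 to 15.29 in Ctrl-F. Alveolar type 1 markers, cells that carry ENaC and Aqp5, fell in 5 of 5 genes in each group (medians -1.67, -1.55 and -1.58; summed level 17.90 to 17.97 in NT, 16.78 to 16.97 in Ctrl-F, 16.77 to 16.81 in Cap-F and 16.92 to 17.02 in ODNcap-F). Alveolar type 2 markers, of other ENaC-bearing cells, fell in 4 of 6 genes in each group (medians -0.43, -0.40 and -0.40).

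Club cell markers fell in 5 of 6 genes in Ctrl-F and 4 in each of Cap-F and ODNcap-F, with medians of -1.51, -1.0 and -1.22 and summed levels of 19.45 to 19.51 in NT and 18.42 to 18.43 in Ctrl-F. Ciliated cell markers fell in 4 of 6 genes in Ctrl-F and 1 in each of the other groups (medians -0.88, -0.43 and -0.27). Mucous cell markers rose in 7 of 7 genes in every OVA-challenged group (medians 3.02, 3.67 and 4.11), with a summed level of 11.07 to 11.86 in NT, 14.32 to 14.80 in Ctrl-F, 14.59 to 15.86 in Cap-F and 15.30 to 16.01 in ODNcap-F. Of these genes Foxa3 was not well above background in NT and passed the filter only through OVA-challenged groups. Its call used NT signals of 2.67 and 2.94, under the lowest signal well above background, and does not measure a fold. Within Cap-F, mouse 2 was higher than mouse 1 in mucous cell markers (4.30 and 3.04 above NT). Slc26a4 was at 14.98 in mouse 2 and 15.28 in mouse 1, a small gap beside its rise from NT. Any relation of Slc26a4 to mucous cell markers was not tested.

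Ionocytes are rare airway cells known for high Cftr, and their defining factor Foxi1 was not well above background on both arrays of any group. Of the other 5 ionocyte genes Atp6v0d2, Moxd1 and Stap1 rose in each group and Ascl3 and Atp6v1c2 did not pass the test, with summed levels of 11.98 to 12.18 in NT and 12.88 to 13.04 in Ctrl-F. Macrophages and lymphocytes express Atp6v0d2 and Stap1 as well. Leukocyte markers rose in 5 of 5 genes in each group (medians 2.13, 2.04 and 1.86), as did eosinophil markers (3.16, 3.37 and 3.19). The eosinophil gene Epx was not well above background in NT and passed the filter only through OVA-challenged groups. Its call used NT signals of 3.46 and 1.77, under the lowest signal well above background, and does not measure a fold. Smooth muscle markers had 0 of 6 genes called in Ctrl-F and 1 higher in each of the other groups. Markers of cardiomyocytes, which mouse pulmonary veins hold, were called lower in 4 of 5 genes in Ctrl-F and in none in Cap-F or ODNcap-F. Their medians were nonetheless below NT in each group (-3.07, -1.94 and -0.64), with Cap-F mouse 1 at -3.45 and mouse 2 at -0.49 from NT.

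Aqp4 differed between the Cap-F mice in the same direction as these cardiomyocyte markers and ciliated cell markers, but also as several other lists. It was 1.94 below the NT mean in Cap-F mouse 1, where ciliated markers were at -0.81, and 1.08 below it in mouse 2, where they were at -0.04. In Ctrl-F its values of -1.27 and -2.07 stood beside -0.74 and -1.0 for ciliated markers and -3.34 and -2.79 for cardiomyocyte markers. From Cap-F mouse 1 to mouse 2, medians also went up for mucous cell (3.04 to 4.30) and club cell markers (-1.19 to -0.84). The same held for general epithelial (-0.46 to -0.26) and smooth muscle markers (0.16 to 0.45). Alveolar type 1 markers barely differed (-1.56 and -1.54), and alveolar type 2, ionocyte, leukocyte and eosinophil markers went down. The direction in Cap-F was thus not particular to cardiomyocyte and ciliated cell markers. The part of any cell type in the Aqp4 values was not tested.

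**Figure D5:**
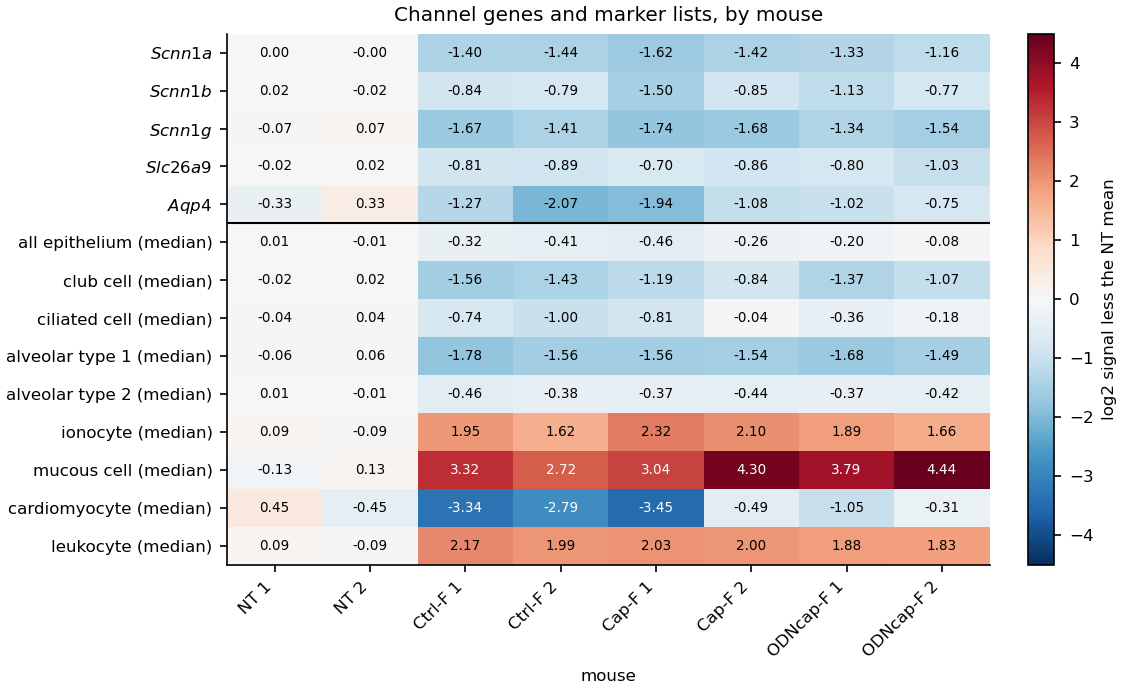
Log2 signal less the NT mean in each of 8 mice for the ENaC subunits, Slc26a9 and Aqp4 and, under the line, the median of each marker list. All 5 genes were negative in all 6 OVA-challenged mice, as were the general epithelial, club cell, ciliated cell and both alveolar lists. Ionocyte, mucous cell and leukocyte lists were positive, and cardiomyocyte markers ranged from -3.45 to -0.31 in these mice.

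The genes nearest in pattern to Slc26a4 and Aqp4, the largest rise and the largest fall of the 9 genes in Ctrl-F, were found by the root mean square difference of log2 values less the NT mean, over 8 mice and 16434 named genes. Nearest to Slc26a4 were Ccl8, a chemokine (difference 0.35), Arg1, arginase 1 (0.51), Speer2 (0.58), Retnlb, a secreted protein of mucous cells (0.61), and Mmp12, a macrophage elastase (0.65). Speer2 and Retnlb lay under the lowest signal well above background in both NT mice. Ccl8, for example, was at 8.24 and 7.95 in NT and at 16.06 to 16.57 in the OVA-challenged mice. Nearest to Aqp4 were Pcp4l1 (0.23), D130043K22Rik (0.25), Stk33 (0.25), Rd3 (0.25) and Sh3gl2 (0.27). D130043K22Rik and Sh3gl2 passed the filter only through NT. In every OVA-challenged mouse but Cap-F mouse 2 they lay under the lowest signal well above background on that array. Pcp4l1 was at 12.25 and 12.27 in the NT mice, 10.76 and 10.52 in Ctrl-F, 10.49 and 11.16 in Cap-F, and 11.08 and 11.47 in ODNcap-F.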

How the data were processed

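The authors deposited, per array, the background-subtracted intensity of each spot from Agilent Feature Extraction 11.0, and a log2 table of 32312 probes, log-transformed and quantile normalized by the authors. From these intensities, control spots were left out, 792 flagged spot values set to missing, log2 values averaged per probe and quantile normalized over 8 arrays. A probe was kept where both mice of any 1 group gave a signal well above background (37116 of 56605). Genes were named by accession (32994 probes matched RefSeq). The number of arrays limits the precision. Nothing says whether the mice of a group shared a cage or an experiment. The p-values set group differences against the spread between mice within groups. They cannot account for a cage or an experiment that differed between groups.

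All arrays entered 1 fit of the 4 groups (limma 3.58.1, R 4.3.3; lmFit and eBayes, two-sided, 4 residual degrees of freedom, 1.96 added by moderation). Calls were made for the brightest probe of a gene, at a p under 0.05 after Benjamini-Hochberg adjustment over all probes kept. The study's local-pooled-error test was rebuilt (100 bins, spline with 10 degrees of freedom) as an alternative, and limma was preferred because it uses each gene's own spread. Other alternatives were 75th percentile scaling, normexp (offset 50), the deposited table, no filter, a filter on all arrays, an intensity trend, a block for the replicate number, fits of 2 groups alone, leaving out each array, the mean of probes, a fold over 2 and an unadjusted p. A signal not well above background in a group gives a bound against the lowest signal well above it. Named were all 10 genes, up to 4 called genes with the largest rise and fall in Ctrl-F per related list, and the 5 genes nearest in pattern. The genes and lists were chosen with earlier results of these data known.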

Additional observations from a re-analysis of the deposited data

How the results depend on the processing

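With a fold over 2 required, 4 of 9 genes were called against NT in Ctrl-F and 3 in ODNcap-F, in place of 7 and 5, because the fold itself removes genes. With an unadjusted p, 1 gene was called for ODNcap-F against Ctrl-F and 1 against Cap-F, in place of 0. With 1 mouse left out, counts against NT ran from 4 to 7 in Ctrl-F (4 without Ctrl-F mouse 2), 5 to 6 in Cap-F and 4 to 5 in ODNcap-F, and were 0 between OVA-challenged groups. The remaining mouse was then assumed to vary like the other groups. With the replicate number as a block the counts were 7, 6, 5, 0, 0 and 0. Deviations of same-numbered mice correlated at -0.012 to 0.16, so the numbers were not taken as pairs.

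Signs turned for differences that passed no test. With 75th percentile scaling these were Slc12a2 in Ctrl-F against NT (0.026), Cftr (0.013) and Ano1 (0.0077) in ODNcap-F against NT, and Cftr in Cap-F against Ctrl-F (-0.016). Normexp turned Scnn1b in ODNcap-F against Cap-F (-0.044), and the deposited table turned Cftr in ODNcap-F against NT (0.0076). With 1 mouse left out, differences from NT ran from -0.20 to 0.0033 for Slc12a2 in Ctrl-F and from -0.24 to 0.24 for Cftr in ODNcap-F. For ODNcap-F against Ctrl-F the ranges were -0.37 to 0.11 (Cftr), -0.32 to 0.040 (Scnn1b), -0.029 to 0.23 (Scnn1g), -0.20 to 0.082 (Slc26a4), -0.18 to 0.052 (Slc26a9) and -0.14 to 0.037 (Slc12a2). For ODNcap-F against Cap-F they were -0.39 to 0.092 (Cftr), -0.10 to 0.55 (Scnn1b), -0.11 to 0.19 (Slc26a4) and -0.021 to 0.16 (Slc12a2). For Cap-F against Ctrl-F they were -0.037 to 0.075 (Cftr), -0.20 to 0.0023 (Scnn1a), -0.26 to 0.047 (Slc26a4), -0.0064 to 0.15 (Slc26a9) and -0.27 to 0.59 (Aqp4). The cause of these turns was not tested.

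Over all alternatives but single mice left out, 627 fold changes of single genes kept direction and side of the threshold, 9 lost and 6 gained a call and 6 turned sign, and with 1 mouse left out 397 kept both, 13 lost a call and 22 turned. Slc26a4, Scnn1a and Scnn1g stayed called against NT in all 3 groups under every alternative, from 7.77 to 8.74 for Slc26a4. Permuting 4 mice of 1 gene exactly cannot reach a p of 0.05.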
